A study of Mus musculus with 6 samples.

Results

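The dystrophin-glycoprotein complex joins the cytoskeleton of a muscle fibre to the matrix around it. Its 8 genes described here are Dmd, Utrn, Dag1, Sgca, Sgcb, Sgcd, Sntb1 and Dtna, and all 8 are listed among the 13363 genes with a value in the gastrocnemius muscle of mice. They were chosen by gene symbol through their Entrez gene IDs, with earlier results of these data known. The muscles came from male Balb/c mice that were 6 weeks old at purchase and were acclimated for 1 week. In the C26 group, 500000 cells of C26, a mouse colon adenocarcinoma line that causes wasting, were inoculated under the skin of the right flank. The Control mice received no tumor cells, and the labels name no altered allele in either group. The model is thus 1 tumor line in male mice of 1 strain, and 3 samples of each group, called muscles below, were sequenced. The labels do not state that the 3 samples of a group came from separate mice, so the p-values below measure the spread between these samples, part of which may be technical.

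Dystrophin binds actin filaments inside the fibre and, at its other end, β-dystroglycan in the membrane. Dystroglycan carries a long sugar chain that holds laminin in the basement membrane, the sarcoglycans stabilise this contact, and dystrobrevin and the syntrophins tether signalling proteins to it. Loss of dystrophin causes Duchenne muscular dystrophy, and loss of single sarcoglycans causes limb-girdle dystrophies. Utrophin is the close relative of dystrophin and in adult fibres gathers at the neuromuscular synapse and the tendon junction.

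The promoters of the 3 members whose expression changed between the groups are shown, since transcription of a gene begins there. Promoters, defined here as 250 bases before and 50 bases from the start site, were taken from RefSeq on GRCm38.p6, and 6 of the 8 members were matched to an entry in the table used here. Capitals mark matches to 4 motifs searched on both strands. These are the E-box CANNTG bound by MyoD and its relatives, the FoxO site GTAAACA, the N-box TTCCGG known from synaptic promoters, and the CArG box bound by serum response factor. Of 32851 promoters of this length, 72.3% held an E-box, 3.65% a FoxO site, 14.9% an N-box and 1.63% a CArG box. Dmd has 2 entries on the plus strand, at chrX:82948620-82948919 and, 2099425 bases further into the gene, at chrX:85048045-85048344. Dag1 also has 2 entries, which overlap on the minus strand, and the outer one at chr9:108263909-108264208 is shown, and the Utrn entry is on the minus strand at chr10:12861686-12861985.
Dmd, first start: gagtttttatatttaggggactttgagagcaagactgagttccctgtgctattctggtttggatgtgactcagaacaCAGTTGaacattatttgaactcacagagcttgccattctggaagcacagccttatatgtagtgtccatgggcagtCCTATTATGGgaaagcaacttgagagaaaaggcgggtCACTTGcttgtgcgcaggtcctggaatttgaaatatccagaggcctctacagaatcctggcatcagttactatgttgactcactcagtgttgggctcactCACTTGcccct
Dmd, second start: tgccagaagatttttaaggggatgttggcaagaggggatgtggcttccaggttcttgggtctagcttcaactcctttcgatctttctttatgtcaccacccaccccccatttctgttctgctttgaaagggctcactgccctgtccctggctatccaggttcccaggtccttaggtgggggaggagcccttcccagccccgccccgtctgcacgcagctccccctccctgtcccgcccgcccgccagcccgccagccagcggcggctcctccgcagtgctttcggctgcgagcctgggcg
Dag1: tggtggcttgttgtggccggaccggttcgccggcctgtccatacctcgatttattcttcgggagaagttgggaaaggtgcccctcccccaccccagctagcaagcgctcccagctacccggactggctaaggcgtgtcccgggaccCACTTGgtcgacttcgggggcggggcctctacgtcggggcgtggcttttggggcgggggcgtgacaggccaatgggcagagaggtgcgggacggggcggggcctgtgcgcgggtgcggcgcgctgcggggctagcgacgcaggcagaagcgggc
Utrn: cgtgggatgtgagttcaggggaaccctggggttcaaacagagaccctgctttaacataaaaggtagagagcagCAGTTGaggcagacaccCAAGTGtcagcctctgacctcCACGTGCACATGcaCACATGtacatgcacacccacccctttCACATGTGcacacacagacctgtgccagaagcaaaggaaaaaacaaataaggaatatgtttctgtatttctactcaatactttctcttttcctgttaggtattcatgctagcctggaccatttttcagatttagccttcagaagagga

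The first Dmd promoter held 3 E-boxes and 1 CArG box, and the second held none of the 4 motifs. Each of the Dag1 promoters held 1 E-box. In the Utrn promoter, 7 E-box matches were found, some of which overlap each other. Neither the FoxO site nor the N-box occurred in these windows. The start of the Utrn entry lies 8153 bases inside the outer end of the gene, and the first Dmd start lies 134206 bases inside, so that each of these genes has further annotated sequence upstream of the window shown. The measured values are 1 per gene and do not separate transcripts from different starts. GENCODE lists 14 Dmd transcripts of 369 to 14910 bases and 13 Utrn transcripts of 430 to 12382 bases.

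The measure is FPKM, a count of sequenced fragments divided by the length of the transcript and by the mapped reads of the sample, so that levels of different genes can be compared per length. Depth per sample is unknown, because the values used here are not counts. Summed over genes, FPKM came to 531061 to 585169 with C26 tumors and 626992 to 688300 without, so fold changes were taken on a common scale. Each sample was brought to the same sum (TPM), TMM factors then put the samples on a common level, and log2(TPM + 1) was taken. Fold changes below are on this scale, which understates the change of genes with low values. All genes together had a median log2 fold change of -0.05. A gene is said to have risen or fallen where its adjusted p was under 0.05 (limma, two-sided, Benjamini-Hochberg adjustment over all 13363 genes).

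Of the 8 members, 2 rose (Dmd and Dag1), 1 fell (Utrn) and 5 did not pass the test. Over all listed genes 19.4% rose and 14.5% fell. None of the 8 changed by more than 4-fold at this threshold, against 3.49% of all genes. C26 and Control FPKM were free of overlap in 4 of the 8 members (Dmd, Utrn, Dag1 and Sgca) and in 53.3% of all genes, so that absence of overlap was common in this comparison. The median log2 fold change of the members was 0.32, with 6 above 0 and 2 below, while 6283 genes were above 0 and 7080 below among all those listed. At an unadjusted p under 0.05 there were 5 members and 6297 genes. Among fits that left out 1 muscle, Dmd alone rose without C26 replicate 1, and Sgca rose besides Dmd and Dag1 without C26 replicate 3. No member fell without C26 replicate 1, 2 or 3 or Control replicate 1, and Utrn and Sntb1 fell without Control replicate 3.

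**Figure D1:**
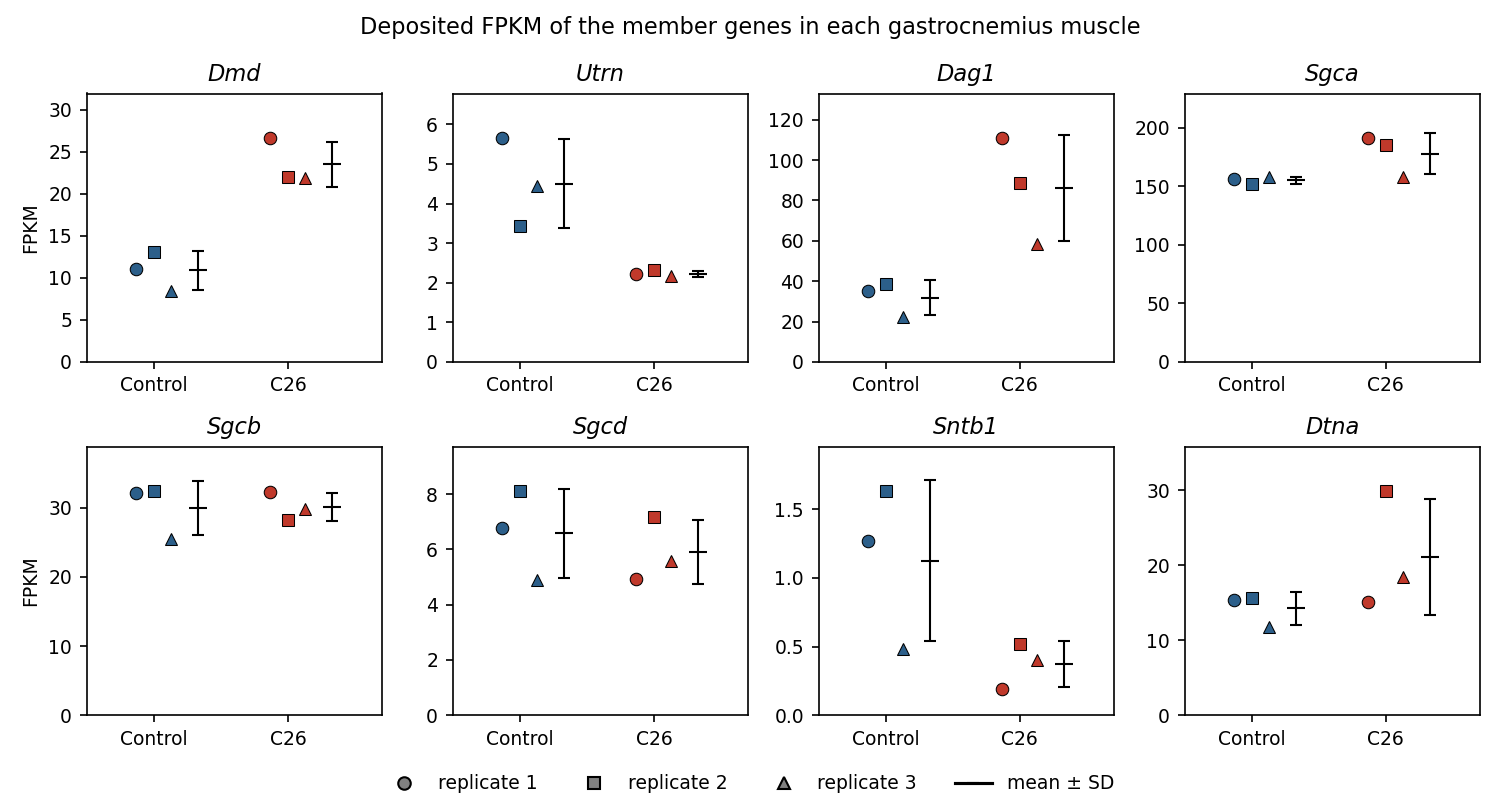
Deposited FPKM (vertical axes, from 0, with a separate range per gene) of the 8 members in the 3 Control and 3 C26 gastrocnemius muscles. Each symbol is 1 muscle and the bars give the mean ± SD. Dmd and Dag1 lie higher and Utrn lower in every C26 muscle than in any Control muscle, and Sgcb, Sgcd, Sntb1 and Dtna overlap.

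Dmd (Entrez gene ID 13405, chrX:82814664-85205050 on GRCm38.p6) encodes dystrophin, the cytoskeletal end of the complex. Its level was 26.61, 22.02 and 21.88 FPKM in C26 replicates 1 to 3 and 11.09, 13.06 and 8.48 FPKM in the Control replicates. Every C26 muscle lay above every Control muscle, and the lowest C26 value exceeded the highest Control value by more than the SD of either group. The mean rose from 10.9 ± 2.30 to 23.5 ± 2.69 FPKM (SD, n = 3), a ratio of 2.16. The log2 fold change was 1.29 (SE 0.23, 95% confidence interval 0.75 to 1.84, limma adjusted p = 0.00943). The adjusted p stayed under 0.05 in all 6 fits that left out 1 muscle, at 0.0112 to 0.0452, and in 8 of 8 other settings.

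Utrn (Entrez gene ID 22288, chr10:12382187-12869888) moved the other way. It had 2.22, 2.31 and 2.16 FPKM in C26 and 5.65, 3.43 and 4.44 FPKM in Control muscles. The C26 values were nearly equal to each other and lay below all Control values, which were spread more widely. From 4.51 ± 1.11 FPKM the mean fell to 2.23 ± 0.0755 FPKM (SD, n = 3), a ratio of 0.495. On the log2(TPM + 1) scale the change was -0.65 (SE 0.16, 95% confidence interval -1.04 to -0.26, limma adjusted p = 0.0255). This call rested on few muscles. The adjusted p was 0.0890, 0.0759 and 0.0506 without C26 replicate 1, 2 or 3 and 0.0782 without Control replicate 1. It was 0.0840 after quantile normalization and 0.0646 with same-numbered samples treated as a block. The log2 fold change was below 0 in every fit.

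Utrophin RNA is not restricted to fibres, and vessels and nerve also make it, so the markers of such cells are given here. Of 10 endothelial markers, Kdr and Emcn fell and none rose, and their summed level was 150 to 161 TPM in C26 and 162 to 233 TPM in Control muscles. The 10 Schwann cell markers summed to 23.9 to 57.4 TPM in C26 and 41.1 to 123 TPM in Control muscles, with S100b falling. The 10 markers of smooth muscle and pericytes summed to 148 to 218 TPM against 185 to 271 TPM, with 3 falling. The 10 fibroblast markers summed to 308 to 460 TPM against 610 to 852 TPM, with 5 falling. The 8 adipocyte markers summed to 475 to 690 TPM in C26 and to 6375, 3579 and 785 TPM in Control replicates 1 to 3, with 7 of 8 falling. Over all listed genes 14.5% fell, and the endothelial and Schwann cell counts are near that share. None of the markers in these lists was at 0, as holds for every listed gene. Their part in the Utrn result was not tested, and in whole muscle fewer cells of a type cannot be told apart from less RNA per cell.

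Set against each other within a muscle, Utrn and Dmd need no scaling between samples. The Utrn to Dmd ratio of FPKM was 0.0834, 0.105 and 0.0987 with C26 tumors and 0.509, 0.263 and 0.524 in Control muscles. Control replicate 2 had the lowest ratio of its group and was still above all C26 muscles. The mean log2 ratio was -3.39 ± 0.17 in C26 and -1.28 ± 0.56 in Control muscles (SD, n = 3), a difference of -2.11 or a 4.33-fold lower ratio. A two-sided exact permutation test gave p = 0.1, the smallest p that 3 muscles against 3 allow, so the design could not reach 0.05. The difference was -2.44 to -1.94 when each muscle was left out in turn and -1.81 with 1 FPKM added to both genes. Among 2 ratios tested, adjustment over both left the exact p at 0.1.

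**Figure D2:**
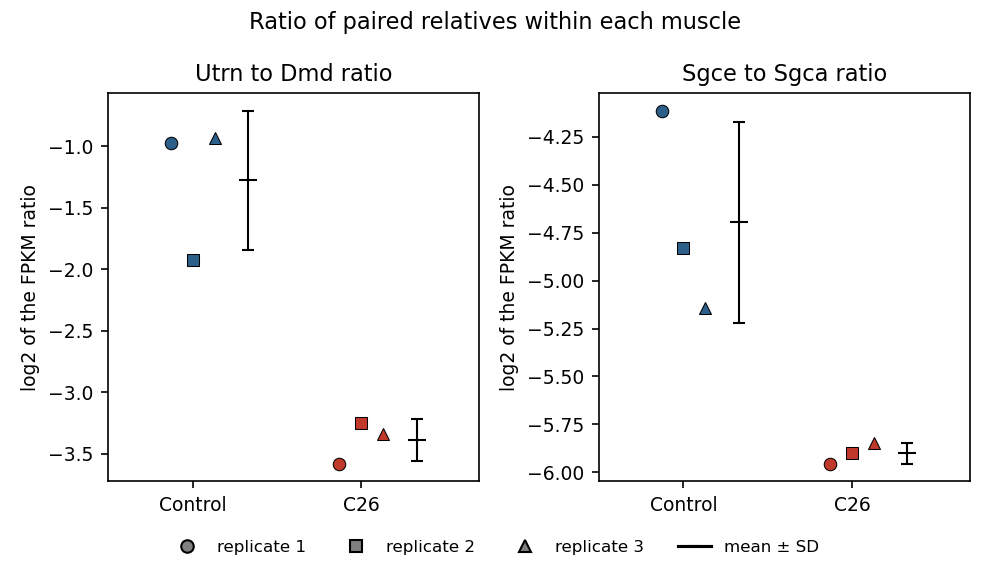
Log2 of the FPKM ratio of Utrn to Dmd (left) and of Sgce to Sgca (right) in each muscle, with the mean ± SD of 3 muscles. The vertical axes are log2 scales that do not start at 0. In both panels all C26 muscles lie below all Control muscles, with means of -3.39 against -1.28 on the left and -5.90 against -4.70 on the right.

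Dag1 (Entrez gene ID 13138, chr9:108204861-108263977) encodes the precursor of both dystroglycans, the laminin receptor of the complex and its anchor in the membrane. Its level was 110.82, 88.72 and 58.65 FPKM with C26 tumors and 34.91, 38.39 and 22.01 FPKM without. The groups did not overlap, and C26 replicate 3 was closest to the Control muscles. Dag1 rose from 31.8 ± 8.63 to 86.1 ± 26.2 FPKM (SD, n = 3), a ratio of 2.71, and had the largest log2 fold change of the 8 members at 1.62 (SE 0.32, 95% confidence interval 0.86 to 2.39, limma adjusted p = 0.0128). Without C26 replicate 1 the adjusted p was 0.0522 with a log2 fold change of 1.43, and in the other 5 fits that left out a muscle it was under 0.05.

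Ratios among the members were also taken within each muscle. Dag1 to Dmd was 4.16, 4.03 and 2.68 in C26 muscles and 3.15, 2.94 and 2.60 in Control muscles, with overlap between the groups. Relative to Sgca, by contrast, Dmd was at 0.139, 0.119 and 0.139 in C26 and at 0.0710, 0.0859 and 0.0538 in Control muscles. The Dag1 to Sgca ratio was 0.580, 0.480 and 0.372 against 0.223, 0.252 and 0.140. Sgcb to Sgca was 0.169, 0.153 and 0.189 in C26 and 0.206, 0.213 and 0.161 in Control muscles, and Sgcd to Sgca was 0.0258, 0.0388 and 0.0355 against 0.0433, 0.0533 and 0.0310. Of these 4 ratios to Sgca, those of Dmd and Dag1 did not overlap between the groups and those of Sgcb and Sgcd did, and all are given without a test.

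The sarcoglycans are membrane proteins that bind each other beside dystroglycan. Sgca (Entrez gene ID 20391, chr11:94962777-94976327), α-sarcoglycan of striated muscle, was the most abundant member at 191.17, 184.98 and 157.76 FPKM in C26 and 156.24, 152.11 and 157.75 FPKM in Control muscles. The groups were separated by 0.01 FPKM, since C26 replicate 3 was level with Control replicate 3. Means were 178 ± 17.8 and 155 ± 2.92 FPKM (SD, n = 3), and the log2 fold change was 0.41 (SE 0.13, 95% confidence interval 0.09 to 0.72, limma adjusted p = 0.0539), just above the threshold. The adjusted p was 0.0249 without C26 replicate 3 and 0.0265 with trends in length and GC removed. Quantile normalization put the log2 fold change at -0.017, so Sgca has no direction that held under every scaling.

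Sgcb (Entrez gene ID 24051, chr5:73632749-73647737) encodes β-sarcoglycan and was at 32.32, 28.22 and 29.81 FPKM in C26 and 32.15, 32.34 and 25.47 FPKM in Control muscles. The means of 30.12 ± 2.07 and 29.99 ± 3.91 FPKM (SD, n = 3) were closer than the spread within either group. Its log2 fold change after scaling was 0.22 (95% confidence interval -0.22 to 0.67, limma adjusted p = 0.372). Sgcd (Entrez gene ID 24052, chr11:46971077-47989451), encoding δ-sarcoglycan, was at 4.94, 7.18 and 5.60 FPKM in C26 and 6.77, 8.10 and 4.89 FPKM in Control muscles. These groups overlapped over most of their range, and the log2 fold change was 0.06 (95% confidence interval -0.54 to 0.66, limma adjusted p = 0.859). For both genes the interval excluded the fitted change of Dmd and Dag1 but still allowed changes of either sign.

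Sgce was not a member and encodes ε-sarcoglycan, the broadly expressed relative of α-sarcoglycan. It had 3.08, 3.10 and 2.74 FPKM in C26 and 9.01, 5.34 and 4.47 FPKM in Control muscles (log2 fold change -0.70, SE 0.25, limma adjusted p = 0.0679). All C26 values lay below all Control values. The Sgce to Sgca ratio was 0.0161, 0.0168 and 0.0174 in C26 and 0.0577, 0.0351 and 0.0283 in Control muscles. Its mean log2 difference was -1.20, a 2.30-fold lower ratio (two-sided exact permutation test, p = 0.1, the smallest possible), and -1.43 to -0.91 when each muscle was left out in turn. Sgce is also made outside fibres. Of the markers given with Utrn, 7 of 8 adipocyte, 5 of 10 fibroblast and 3 of 10 smooth muscle and pericyte markers fell. So did 2 of 10 endothelial and 1 of 10 Schwann cell markers, against 14.5% of all genes. Their part in this ratio was not tested.

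On the inner face of the membrane, Sntb1 (Entrez gene ID 20649, chr15:55636388-55907302) encodes β1-syntrophin, an adaptor for signalling proteins. It was the member with the lowest level at 0.19, 0.52 and 0.40 FPKM in C26 and 1.27, 1.63 and 0.48 FPKM in Control muscles. Control replicate 3 lay among the C26 muscles, so the groups overlapped. Means were 0.370 ± 0.167 and 1.13 ± 0.588 FPKM (SD, n = 3), with a log2 fold change of -0.69 (SE 0.31, 95% confidence interval -1.44 to 0.07, limma adjusted p = 0.133). Without Control replicate 3 the log2 fold change was -1.01 and the adjusted p 0.0235, so this muscle decided the call. That library also had 40.10 FPKM of the leukocyte gene Ptprc, against 0.23 to 0.81 FPKM in the other 5, and its part in the Sntb1 result was not tested. With a pseudocount of 0.1 in place of 1 the log2 fold change was -1.20.

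Dtna (Entrez gene ID 13527, chr18:23310006-23659719) encodes α-dystrobrevin, which binds dystrophin and the syntrophins. It had 15.02, 29.81 and 18.43 FPKM in C26 and 15.32, 15.58 and 11.75 FPKM in Control muscles. C26 replicate 2 was the highest of the 6 muscles, and C26 replicate 1 lay within the Control range. The means were 21.1 ± 7.74 and 14.2 ± 2.14 FPKM (SD, n = 3), and the log2 fold change of 0.71 (SE 0.28, 95% confidence interval 0.05 to 1.37) did not pass at a limma adjusted p of 0.0893. It did not pass in any fit that left out a muscle.

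Together with 5 other listed genes of the complex, the members span more than 100-fold in FPKM. In Control muscles the order from highest to lowest mean was Sgca, Dag1, Sgcb, Sspn, Dtna, Dmd, Sgcd, Sgce, Utrn, Dtnb, Sntb1, Drp2 and Sntb2. Neighbours whose ranges overlapped were Dag1 with Sgcb, Sspn with Dtna, Dtna with Dmd, Sgcd with Sgce, Sgce with Utrn, and the low genes from Dtnb to Sntb2. In C26 muscles the order was Sgca, Dag1, Sgcb, Dmd, Dtna, Sspn, Sgcd, Sgce, Dtnb, Utrn, Drp2, Sntb2 and Sntb1. Dag1 thus stood above Sgcb with no overlap in C26 muscles, whereas their ranges overlapped in Control muscles. Dmd and Dtna overlapped in either group, and so did Sgcd with 1 of its neighbours.

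None of these 5 further genes passed the test, and their median log2 fold change was -0.51. Sntb2, β2-syntrophin, had a mean of 0.463 FPKM against 1.05 FPKM (log2 fold change -0.51, limma adjusted p = 0.0650). Sspn, the membrane protein sarcospan, had 9.50 ± 3.78 FPKM against 17.6 ± 5.20 FPKM (log2 fold change -0.66, limma adjusted p = 0.224). Dtnb, β-dystrobrevin, ranged from 0.63 to 4.93 FPKM among C26 muscles alone (log2 fold change 0.53, limma adjusted p = 0.481). Drp2, dystrophin-related protein 2 of nerve, was at 0.767 FPKM against 1.08 FPKM (log2 fold change -0.16, limma adjusted p = 0.619). At an unadjusted p under 0.05 there were 2 of the 5, namely Sgce and Sntb2. Some settings brought an adjusted p under 0.05. For Sgce these were a mean TPM of at least 1 (0.0461), FPKM as deposited (0.0428) and the fit without Control replicate 3 (0.0214). For Sntb2 they were a pseudocount of 0.1 (0.0472), FPKM as deposited (0.0470), removal of trends in length and GC (0.0326) and the fit without Control replicate 3 (0.0341). Dtnb passed without C26 replicate 3 (0.0466).

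**Figure D3:**
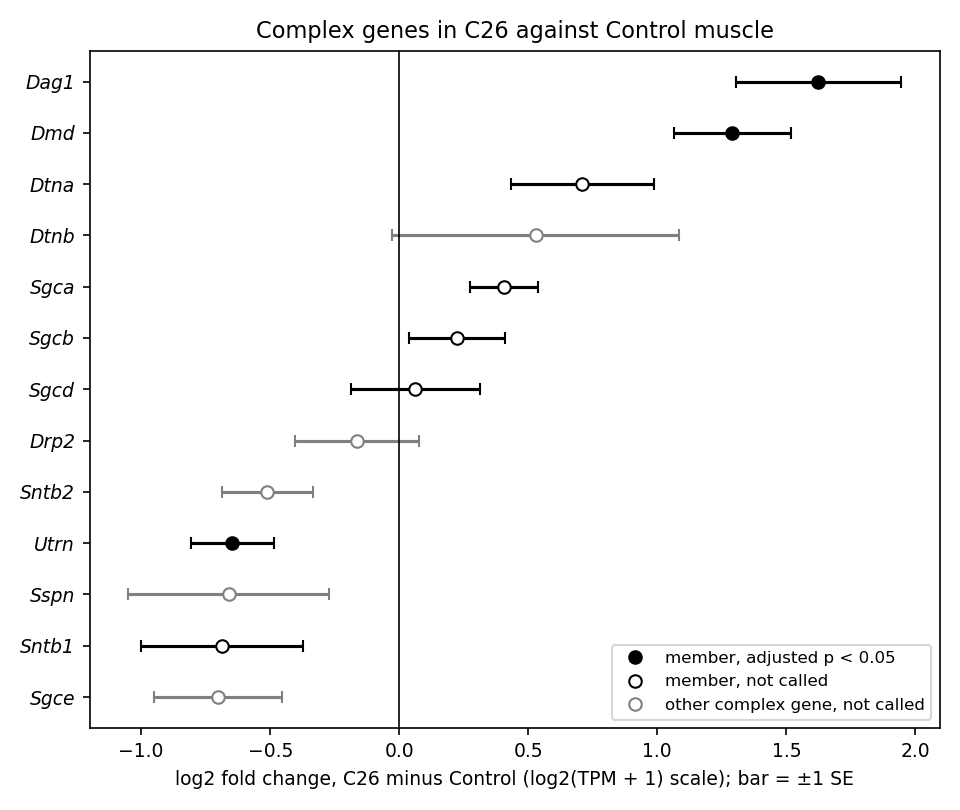
Log2 fold change of C26 against Control muscle (horizontal axis, log2(TPM + 1) scale) for the 8 members and 5 other listed genes of the complex, ordered by size. Bars are ±1 SE, and filled symbols had an adjusted p under 0.05. Dag1 (1.62), Dmd (1.29) and Utrn (-0.65) are filled.

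Over the 6 muscles, the genes whose log2 values followed those of Dmd most closely among 11223 genes with a mean TPM of at least 1 were Arih1 and Eea1 (Pearson r = 0.9990 each), Gys1 (0.9986), Tfb2m (0.9984) and Ndrg2 (0.9982). For Utrn they were Ddx58 (0.9990), Frat2 (0.9983), Sh3bgrl (0.9960), Gatm (0.9959) and Inf2 (0.9956). No member of the complex was among these 10. The difference between the groups is part of each r, which is given as a description without a p.

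Proteins that bind the complex inside the fibre included genes with larger changes than any member. Of 11 listed, 4 rose (Flnc, Nos1, Ank3 and Des), 1 fell (Cav3) and 6 did not pass, with a median log2 fold change of -0.05. The counts of this and the following lists stand against 19.4% of all genes that rose and 14.5% that fell. Flnc, encoding filamin C that binds sarcoglycans and actin, had 374.78, 1398.02 and 272.15 FPKM in C26 and 52.51, 54.94 and 29.52 FPKM in Control muscles. All C26 muscles were far above the Control muscles, and C26 replicate 2 was the highest. Its log2 fold change was 3.77 (SE 0.61, limma adjusted p = 0.00782), under 0.05 in every fit that left out a muscle. Without C26 replicate 2 the log2 fold change was 3.09. Nos1 encodes the neuronal nitric oxide synthase that the complex holds at the membrane, and had 6.35, 4.47 and 12.86 FPKM in C26 and 1.85, 1.98 and 1.53 FPKM in Control muscles (log2 fold change 1.89, SE 0.39, limma adjusted p = 0.0143). Without C26 replicate 1 or Control replicate 1 it no longer passed, the highest adjusted p being 0.0549.

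Cav3, the fibre's caveolin that binds β-dystroglycan, fell from 66.37, 56.33 and 61.08 FPKM to 14.60, 14.45 and 37.28 FPKM (log2 fold change -1.37, SE 0.40, limma adjusted p = 0.0388). C26 replicate 3 was the closest to the Control muscles, and without it the adjusted p was 0.00125. Without any other muscle (C26 replicate 1 or 2, or Control replicate 1, 2 or 3) the adjusted p was above 0.05, at most 0.128, and with trends in length and GC removed it was 0.0588.

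Enzymes that build the laminin-binding sugar chain of dystroglycan included 2 of 15 that rose, 3 that fell and 10 that did not pass (median log2 fold change -0.14), near the 19.4% and 14.5% over all genes. Dpm1, which supplies mannose for the first step of the chain, rose from 28.57, 26.77 and 25.77 FPKM to 83.65, 79.42 and 43.52 FPKM (log2 fold change 1.49, SE 0.24, limma adjusted p = 0.00812). Pomk, the kinase that phosphorylates the core mannose, fell from 2.71, 2.39 and 2.67 FPKM to 0.39, 0.42 and 0.99 FPKM (log2 fold change -1.30, limma adjusted p = 0.00954). B3galnt2 adds a sugar of the same core and fell from 39.24, 34.05 and 33.20 FPKM to 9.14, 14.17 and 15.40 FPKM (log2 fold change -1.24, limma adjusted p = 0.0112, and 0.0504 without Control replicate 1). Dpm1 and Pomk passed in every fit that left out a muscle. None of these 3 overlapped between the groups. Pomt2 also rose, and Pomgnt2 also fell.

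Among 9 listed matrix proteins that bind dystroglycan or the sarcoglycans, 2 fell and none rose, with a median log2 fold change of -0.73. Lama2, the laminin α2 chain of the fibre's basement membrane, had 4.72, 3.32 and 8.48 FPKM in C26 and 4.44, 4.94 and 3.42 FPKM in Control muscles, with overlap (log2 fold change 0.44, 95% confidence interval -0.43 to 1.31, limma adjusted p = 0.370). Lama4, the laminin α4 chain of vessels and nerve, fell from 3.99 ± 1.29 to 1.15 ± 0.0954 FPKM (log2 fold change -1.18, limma adjusted p = 0.0169). It did not pass without C26 replicate 1 or 2 or Control replicate 1 or 2 (at most 0.0651), nor after quantile normalization (0.0753). Hspg2, encoding perlecan, fell from 12.2 ± 2.81 to 5.22 ± 0.975 FPKM (log2 fold change -0.93, limma adjusted p = 0.0314) and did not pass without the same 4 muscles (at most 0.106). Over all genes 14.5% fell and 19.4% rose, so that 2 of 9 is no result about these proteins. Lama4 had 5.02, 4.40 and 2.54 FPKM and Hspg2 14.90, 12.41 and 9.29 FPKM in Control replicates 1 to 3. The adipocyte, fibroblast, endothelial, and smooth muscle and pericyte sums share this order in Control muscles, and the Schwann cell sum does not. The part of the adipocyte, vessel, nerve and fibroblast markers given with Utrn in these results was not tested.

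Laminin is also bound by integrin α7β1, for which 1 of 8 listed genes rose, 1 fell and 6 did not pass (median log2 fold change -0.08). Itga7 had 12.41, 23.42 and 16.87 FPKM in C26 and 25.56, 22.19 and 16.12 FPKM in Control muscles, which overlapped (log2 fold change -0.08, 95% confidence interval -0.77 to 0.61, limma adjusted p = 0.841). Itgb1, the β1 subunit shared by many integrins, rose from 35.6 ± 5.47 to 48.3 ± 7.10 FPKM (log2 fold change 0.65, limma adjusted p = 0.0408). That call was lost in 7 of 8 other settings and in 5 of 6 fits that left out a muscle, all but the fit without C26 replicate 3. Parva, encoding α-parvin of the integrin-linked kinase complex, fell from 4.64 ± 1.48 to 2.01 ± 0.121 FPKM (log2 fold change -0.79, limma adjusted p = 0.0353). It passed in 1 of 6 fits that left out a muscle, the one without Control replicate 3, and its adjusted p was 0.139 after quantile normalization.

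For repair of the fibre membrane and caveolae, 2 of 10 genes rose (Trim72 and Anxa6), 3 fell and 5 did not pass, at a median log2 fold change of -0.23. Anxa2, a calcium-dependent membrane binding protein, fell from 80.78, 43.39 and 32.41 FPKM to 9.71, 19.23 and 10.73 FPKM (log2 fold change -1.68, SE 0.39, limma adjusted p = 0.0199). Its relative Anxa1 fell from 35.52, 15.99 and 14.74 FPKM to 7.0, 6.74 and 7.40 FPKM (log2 fold change -1.25, limma adjusted p = 0.0294). Cavin1, a coat protein of caveolae, fell from 110.98, 70.35 and 52.16 FPKM to 32.42, 31.64 and 34.47 FPKM (log2 fold change -0.95, limma adjusted p = 0.0458). Control replicate 1 was the highest muscle for all 3 genes, and Control replicate 3 the lowest Control muscle. In fits that left out a muscle, Anxa2 did not pass without C26 replicate 1, Control replicate 1 or Control replicate 2, Anxa1 passed without Control replicate 1 or 3, and Cavin1 passed without Control replicate 3. Cavin1 was also above 0.05 with a pseudocount of 0.1 (0.0521), without TMM (0.0528) and with trends in length and GC removed (0.0631). These genes are also expressed in fat and vessels. The part of the adipocyte and vessel markers given with Utrn was not tested.

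Of 9 listed genes of the neuromuscular synapse, where utrophin of adult fibres is concentrated, 3 fell, none rose and 6 did not pass (median log2 fold change -0.59). Chrne, the adult ε subunit of the acetylcholine receptor, fell from 20.33, 16.01 and 16.36 FPKM to 2.26, 1.23 and 4.49 FPKM (log2 fold change -2.40, SE 0.39, limma adjusted p = 0.00800). It passed in every fit that left out a muscle. Colq, the collagen tail of synaptic acetylcholinesterase, fell from 5.89 ± 1.03 to 1.57 ± 0.984 FPKM (log2 fold change -1.52, limma adjusted p = 0.0311), and among the fits that left out a muscle passed only without C26 replicate 2 or 3. Lrp4, the fibre's receptor for agrin, fell from 3.27 ± 0.625 to 1.31 ± 0.254 FPKM (log2 fold change -0.85, limma adjusted p = 0.0255), and passed only without C26 replicate 3 or Control replicate 3 among the fits that left out a muscle. After quantile normalization its adjusted p was 0.134. The groups were free of overlap in 4 of the 9 genes, against 53.3% of all genes.

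**Figure D4:**
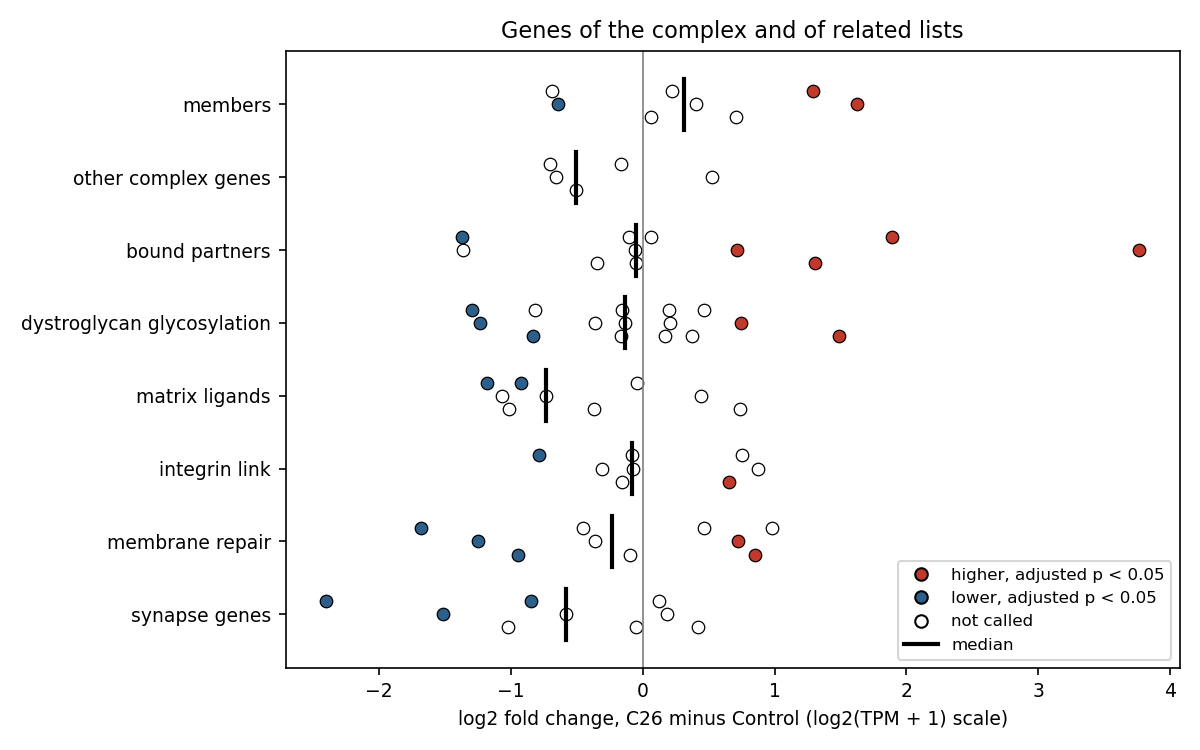
Log2 fold change of C26 against Control muscle (horizontal axis, log2(TPM + 1) scale) for genes of the complex and of 7 related lists. Each circle is 1 gene, red and blue mark genes higher or lower at an adjusted p under 0.05, and the black line is the median of the list. The medians run from -0.73 for matrix ligands to 0.32 for the members.

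Over the 7 related lists together, 9 of 67 genes rose and 13 fell, with a median log2 fold change of -0.14, against 19.4% higher and 14.5% lower over all genes. The counts hung on single muscles. They were 3 or 4 rising genes without C26 replicate 1, C26 replicate 2 or Control replicate 1 and 16 without C26 replicate 3, and 3 to 5 falling genes without C26 replicate 1, C26 replicate 2, Control replicate 1 or Control replicate 2. The extraction text of the labels also mentions THP-1 cells, a human monocyte line, although every label gives gastrocnemius muscle as the tissue. The 14 myofibre markers summed to 102670 to 175450 TPM in C26 and 219707 to 238465 TPM in Control muscles. Of the 14, Myl1, Mylpf and Pvalb fell, none rose, and 5 had a log2 fold change above 0, among them the fast myosin gene Myh1 (2.13, not called) and Neb (0.70, not called). Myh1 had 2555.40 FPKM in C26 replicate 3. C26 replicates 1 and 2, at 298.97 and 254.27 FPKM, lay within the Control range of 92.82 to 330.88 FPKM. Unlike the sum, the mean log2 value of these 14 markers overlapped between the groups. It was 10.83, 10.12 and 11.62 in C26 replicates 1 to 3 and 11.33, 11.34 and 11.06 in the Control replicates. The part of fibre RNA in the rise of Dmd, Dag1 and Flnc was not tested. Among 6 satellite cell markers 1 rose (Chrdl2) and 1 fell (Vcam1), and the 7 listed immune markers, of which S100a8 rose, summed to 67.4 to 491 TPM in C26 and 59.9 to 352 TPM in Control muscles. Dmd and Utrn have transcripts above 10000 bases, and the 325 listed genes with such transcripts had a median log2 fold change of 0.02, with 20.6% higher and 12% lower.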

How the data were processed

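RNA of gastrocnemius muscle was sequenced in 3 C26 and 3 Control samples, grouped by their labels. After rRNA removal with RNaseH, the authors sequenced single-end reads of 50 bases on a BGISEQ-500, filtered them, aligned them to GRCm38.p5 with bowtie2 and obtained FPKM by RSEM. The submitters' processing notes name HISAT2 2.0.4, Bowtie2 2.2.5, RSEM 1.2.12 and build mm9, which differs, and the deposited FPKM carry no coordinates. Coordinates given here are those of RefSeq on GRCm38.p6. Depth is unknown, so precision rests on the spread between 3 samples.

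FPKM were rescaled to TPM, divided by TMM factors (trimming 30% by log ratio and 5% by mean level, factors 0.903 to 1.08), log2-transformed with a pseudocount of 1 and compared with limma 3.58.1 in R 4.3.3 with Benjamini-Hochberg adjustment over 13363 genes. The ratios used exact permutation tests computed in Python 3.11.15. The fit was tested on simulated data for C26 against Control with 13363 genes. It recovered 38 of 100 genes changed by a log2 of 1 and 81 of 100 changed by a log2 of 2, and called 6 unchanged genes. No other genes were changed in the simulation, whereas 2589 rose and 1932 fell in the data, so these counts need not hold here. Members and lists were chosen with earlier results of these data known. Named genes are all members, other listed genes of the complex, Cav3, Nos1, Lama2, Itga7, the 5 genes most like Dmd and Utrn in pattern, and up to 3 called genes of each further list with the largest log2 fold changes. Others were named after their values were seen, to complete a count or to describe a marker list or a library. A few genes of these lists are not reported here and enter none of the lists' counts or medians. Alternatives were a pseudocount of 0.1, quantile normalization, FPKM as deposited, TPM not scaled by TMM, a filter on mean TPM (at least 1), an intensity trend, a replicate block, each muscle left out and, chosen after seeing the data, removal of length and GC trends. The 1 FPKM added to ratios was a further alternative.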

Additional observations from a re-analysis of the deposited data

How the results depend on the processing

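The count of 2 members higher was 2 or 3 in every other setting and 1 to 3 when each muscle was left out. The 1 member lower, Utrn, was 0 after quantile normalization and with a replicate block (adjusted p = 0.0646) and 0 to 2 when each muscle was left out. Related lists had 9 higher and 13 lower, against 5 higher after quantile normalization, 6 lower with the replicate block, 6 higher and 19 lower with FPKM as deposited, 7 higher and 18 lower with a mean TPM of at least 1, and 3 to 16 higher and 3 to 15 lower when each muscle was left out. Deviations of same-numbered samples from their group means had r = -0.039, -0.084 and -0.112 over all genes. With 3 samples per group, these r cannot show whether same-numbered samples were handled together. With the block, Cav3 (adjusted p = 0.0666), Hspg2 (0.0880), Parva (0.0732), Itgb1 (0.0564), Anxa1 (0.0547), Cavin1 (0.0847) and Lrp4 (0.0792) also missed 0.05 in limma. The ratio of Utrn to Dmd was -2.11 and that of Sgce to Sgca -1.20 with the block, each at an exact p of 0.25. Over all genes, 2589 rose and 1932 fell (57.3% of calls higher), against 1678 and 2504 with FPKM as deposited (40.1% higher, median log2 fold change -0.14), 1839 and 1235 with the block, and 1127 to 3311 and 669 to 2160 with each muscle left out. Genes that turned direction had not passed the test. After quantile normalization these were Sgca (-0.017), Sgcb (-0.16) and Drp2 (0.24). Sgcd was at -0.028 with a mean TPM of at least 1, -0.13 with FPKM as deposited, -0.05 without C26 replicate 2 and -0.16 without Control replicate 3 (range with each muscle left out -0.16 to 0.27). Drp2 was at 0.00090 and 0.0039 without C26 replicate 1 or Control replicate 1 (range -0.33 to 0.0039), and Itga7 at 0.15, 0.04 and 0.03 without C26 replicate 1, Control replicate 1 or Control replicate 2 (range -0.31 to 0.15). The cause of these changes was not tested.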
